A study of Danio rerio with 16 samples.

Results

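The cyp1 family of cytochrome P450 genes was followed here in whole zebrafish embryos exposed to TCDD, through 4 genes of a table of 32520: cyp1a (ENSDARG00000098315), cyp1c1 (ENSDARG00000101195), cyp1c2 (ENSDARG00000101789) and cyp1d1 (ENSDARG00000035569). The members were chosen by family name, and all 4 had enough reads to be tested, with 74 counts as their lowest value in any library. No gene named cyp1b1 was among the other cytochrome P450 genes tested, so that the family here means these 4 genes. Embryos came from a wfikkn1 mutant line or from the Tropical 5D wild type, and each library was made from a pool of 9 embryos grown in a separate dish. The nature of the wfikkn1 mutation is not given in the sources used here. All embryos were treated for 1 h at 4 hours post fertilization (hpf) and collected at 48 hpf. The groups analysed were mutants exposed to 1 ng/mL TCDD (n = 4), mutants in 0.1% DMSO (n = 4), wild type exposed to 1 ng/mL TCDD (n = 3) and wild type in 0.1% DMSO (n = 3). The DMSO groups are the vehicle controls. Of 16 labelled samples, 14 were in the count table, and no replicate 2 of wild type, exposed or not, was analysed here.

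CYP1 enzymes are heme proteins of the endoplasmic reticulum that oxidize polycyclic and halogenated aromatic compounds as well as endogenous substrates. TCDD (2,3,7,8-tetrachlorodibenzo-p-dioxin) is a persistent ligand of the aryl hydrocarbon receptor (AHR), a cytoplasmic transcription factor that enters the nucleus when bound, pairs with ARNT and binds response elements near its target genes. In zebrafish, ahr2 encodes the receptor that carries most of the TCDD response. The cyp1a gene is the classical readout of this pathway in fish, and the cyp1c genes are a branch of the family related to CYP1B. The gene cyp1d1 is a relative of cyp1a known in fish for little or no response to AHR ligands. The genes cyp1c1 and cyp1c2 are direct neighbours in the RefSeq gene table of assembly GRCz12tu. The counts rest on another assembly, so that this table served only for gene order and names.

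Total counts ran from 20597475 to 26884477 per library. The targeted gene wfikkn1 held 14, 15, 21 and 22 counts in mutant TCDD libraries and 0, 0, 4 and 3 in mutant DMSO libraries, against 214, 454 and 520 in wild-type TCDD libraries and 10, 12 and 19 in wild-type DMSO libraries. Within each exposure, no mutant library reached the lowest wild-type one. Markers of endothelium, liver, heart muscle, skin epithelium, kidney tubule and red blood cells were found in these whole-embryo libraries, and none of the 35 marker genes tested was at 0 in any library. Listed markers without a match by name, or with too few reads to be tested, are not among the 35. For kidney tubule, 2 of 6 listed markers were matched. Libraries of one group differed along a shared axis of variation that held 28.8% of the within-group variance. Scores on that axis moved with the groups, from -28.9 to -11.1 in mutant TCDD, -8.48 to 30.4 in mutant DMSO, 14.8 to 28.1 in wild-type TCDD and -40.3 to 10.7 in wild-type DMSO libraries. Calls rest on edgeR's quasi-likelihood test: a called gene has a p under 0.05 after adjustment over all 20098 genes tested. Fold changes are log2 values of the first-named group over the second, given ± SE. Levels are CPM, read counts scaled to library size, without division by transcript length, so that a gene is compared between groups and not with another gene.

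Exposure to TCDD raised cyp1a, cyp1c1 and cyp1c2 in both lines, by far more than the spread between pools, and cyp1d1 was not called in either. In mutants cyp1a rose 297-fold, cyp1c1 56.9-fold and cyp1c2 41.7-fold. In wild type cyp1a rose 160-fold, cyp1c1 39.2-fold and cyp1c2 49.9-fold. These 3 of 4 members compare with 36.1% of all genes called in mutants (17.5% higher, 18.6% lower) and 14.6% in wild type (8.84% higher, 5.75% lower). In a bulk sample, more cells with a transcript and more transcript per cell cannot be told apart.

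**Figure D1:**
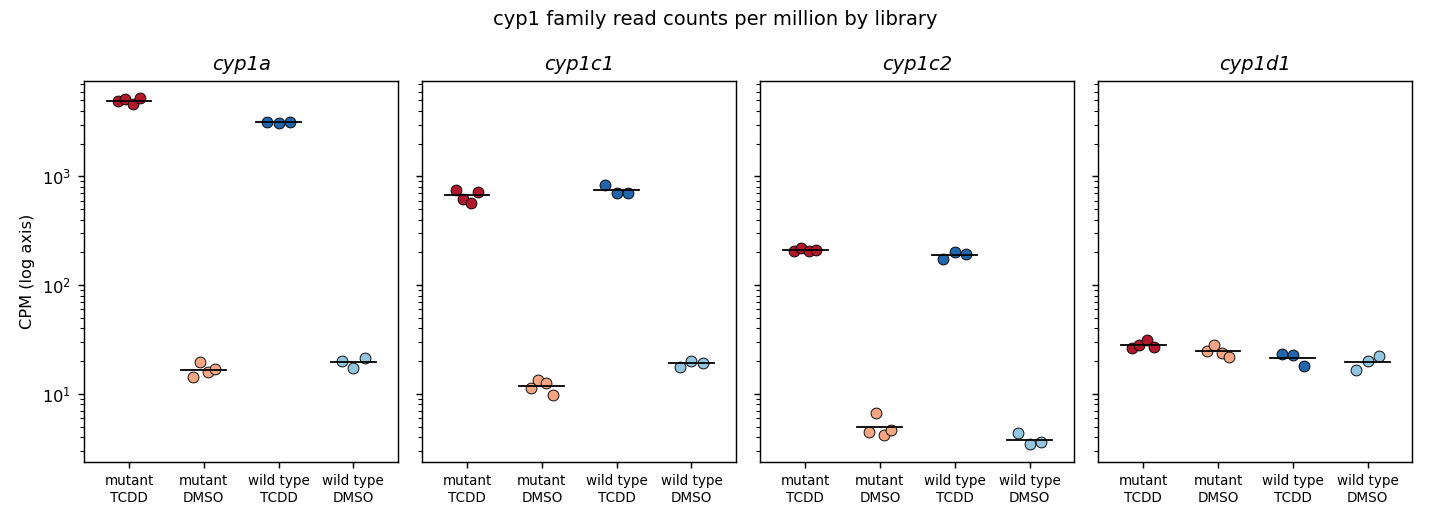
Levels (CPM) of the 4 cyp1 genes, on a log axis, in each library of the 4 groups; each point is 1 pool of 9 embryos and the line is the group mean. In cyp1a, cyp1c1 and cyp1c2 every TCDD library lies above every DMSO library, with cyp1a at 4590 to 5221 CPM in mutant TCDD and 3092 to 3186 CPM in wild-type TCDD libraries, whereas cyp1d1 stays between 16.5 and 31.5 CPM in all 14 libraries.

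The major TCDD-induced monooxygenase gene cyp1a stood at 4899, 5160, 4590 and 5221 CPM in mutant TCDD libraries, against 14.2, 19.8, 15.7 and 17.0 CPM in mutant DMSO libraries. Its log2 change in mutants was 8.21 ± 0.12 (edgeR adjusted p = 8.23e-18). Wild-type TCDD libraries held 3186, 3092 and 3135 CPM of cyp1a, against 20.2, 17.2 and 21.4 CPM in wild-type DMSO libraries. The wild-type change was 7.32 ± 0.13 (edgeR adjusted p = 3.38e-16). Groups did not overlap in either line, as was the case for 37.3% of all genes in mutants and 27.6% in wild type. In both lines cyp1a was the gene with the largest rise of the 20098 tested. With TCDD, cyp1a took 0.499% ± 0.0299 of all counts in mutants (SD, n = 4) and 0.312% ± 0.00615 in wild type (SD, n = 3). In DMSO its share was 0.00168% ± 0.000247 in mutants (SD, n = 4) and 0.00193% ± 0.000211 in wild type (SD, n = 3).

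The neighbours cyp1c1 and cyp1c2, whose enzymes are known in zebrafish embryos as further AHR-responsive P450s, followed with smaller changes than cyp1a. In mutants, cyp1c1 held 753, 622, 573 and 724 CPM with TCDD, against 11.3, 13.4, 12.5 and 9.68 CPM in DMSO, a change of 5.83 ± 0.13 (edgeR adjusted p = 3.32e-15). In wild type, cyp1c1 held 838, 702 and 700.3 CPM with TCDD, against 17.7, 20.1 and 19.3 CPM in DMSO, a change of 5.29 ± 0.14 (edgeR adjusted p = 1.05e-13). Its TCDD levels in the 2 lines overlapped, and its DMSO levels did not.

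Read depth was lower at cyp1c2. In mutants it held 206, 218, 204 and 212 CPM with TCDD, against 4.45, 6.74, 4.15 and 4.65 CPM in DMSO, a change of 5.38 ± 0.13 (edgeR adjusted p = 1.30e-14). In wild type it held 174, 203 and 194 CPM with TCDD, against 4.37, 3.43 and 3.61 CPM in DMSO, a change of 5.64 ± 0.15 (edgeR adjusted p = 1.05e-13). Replicate 2 was the highest mutant DMSO library for cyp1a, cyp1c1 and cyp1c2, and for cyp1d1. Ranked by size of rise among all genes, cyp1c1 was number 4 in mutants and 7 in wild type, and cyp1c2 was number 5 and 4.

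The family member cyp1d1 did not follow. Its levels were 26.2, 27.9, 31.5 and 27.0 CPM in mutant TCDD libraries, against 24.9, 27.9, 23.7 and 21.9 CPM in mutant DMSO libraries. In wild type they were 23.5, 22.8 and 17.9 CPM with TCDD, against 16.5, 20.2 and 22.2 CPM in DMSO. TCDD and DMSO libraries overlapped in both lines. The log2 changes were 0.19 ± 0.12 in mutants (edgeR adjusted p = 0.213) and 0.12 ± 0.14 in wild type (edgeR adjusted p = 0.597).

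The authors' deposited tables also list cyp1a, cyp1c1 and cyp1c2 for TCDD in both lines, and cyp1d1 in neither. In the authors' deposited tables the log2 ratio of cyp1a is 8.21 in mutants and 7.32 in wild type, that of cyp1c1 5.82 and 5.29, and that of cyp1c2 5.38 and 5.64.

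The spread between pools differed among the induced genes. With TCDD, the coefficient of variation of cyp1a was 5.79% in mutants and 1.50% in wild type, that of cyp1c1 12.7% and 10.6%, and that of cyp1c2 3.01% and 7.72%. Counting error alone would give cyp1a 0.29% and 0.372%. Over all genes averaging 1 or more on the log2 CPM scale, there was a median coefficient of variation of 9.48% in mutant TCDD and 11.3% in wild-type TCDD libraries. Mutant cyp1c1 thus varied more than the median gene, and the other values with TCDD lay below it. In DMSO, cyp1a varied by 14.2% in mutants and 11.2% in wild type, cyp1c1 by 13.7% and 6.38%, and cyp1c2 by 23.6% and 13.1%, against medians of 10.02% and 13.8% over all genes. All 3 lay above the median in mutant DMSO and below it in wild-type DMSO libraries. Counting alone would give cyp1c2 9.12% in mutant DMSO and 10.8% in wild-type DMSO libraries.

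The lines were then compared within each exposure. With TCDD, cyp1a and cyp1d1 were higher in mutants than in wild type, while cyp1c1 and cyp1c2 were not called. In DMSO, cyp1c1 was lower in mutants and the other members were not called. The 2 members higher with TCDD compare with 27.6% of all genes called (10.7% higher, 16.9% lower), and the 1 member lower in DMSO with 16.8% called (8.21% higher, 8.60% lower).

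Under TCDD, mutant cyp1a averaged 4968 ± 288 CPM (SD, n = 4), against 3137 ± 47.0 CPM in wild type (SD, n = 3). This is a log2 change of 0.66 ± 0.09, or 1.58-fold (edgeR adjusted p = 9.15e-05), with every mutant library above every wild-type library. Such separation of the lines under TCDD was seen in 37.1% of all genes. Mutant cyp1d1 averaged 28.1 ± 2.38 CPM (SD, n = 4), against 21.4 ± 3.05 CPM in wild type (SD, n = 3), a change of 0.40 ± 0.13 (edgeR adjusted p = 0.0283). The cyp1d1 call ended without mutant TCDD replicate 2 (adjusted p = 0.0557) or 3 (0.0829), without wild-type TCDD replicate 4 (0.143), with the replicate number as a term (0.0657) and with the library score as a term (0.338), all in edgeR.

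The cyp1c genes were not called between the lines under TCDD. Mutant cyp1c1 averaged 668 ± 84.6 CPM (SD, n = 4), against 747 ± 79.0 CPM in wild type (SD, n = 3), a change of -0.16 ± 0.11 (edgeR adjusted p = 0.290). Mutant cyp1c2 averaged 210.2 ± 6.32 CPM (SD, n = 4), against 190.4 ± 14.7 CPM in wild type (SD, n = 3), a change of 0.14 ± 0.11 (edgeR adjusted p = 0.367). The lowest mutant library of cyp1c2, at 204 CPM, lay just above the highest wild-type library, at 203 CPM.

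In DMSO, mutant cyp1c1 averaged 11.7 ± 1.61 CPM (SD, n = 4), against 19.0 ± 1.22 CPM in wild type (SD, n = 3). The change was -0.70 ± 0.12 (edgeR adjusted p = 9.49e-04), and no mutant library reached the lowest wild-type one, as for 23.6% of all genes. The other members overlapped between the lines. Mutant cyp1a averaged 16.7 CPM (14.2 to 19.8) and wild-type cyp1a 19.6 CPM (17.2 to 21.4), a change of -0.23 ± 0.10 (edgeR adjusted p = 0.140). Mutant cyp1c2 averaged 5.00 ± 1.18 CPM and wild-type cyp1c2 3.80 ± 0.498 CPM, a change of 0.40 ± 0.15 (edgeR adjusted p = 0.0773). Mutant cyp1d1 averaged 24.6 ± 2.54 CPM and wild-type cyp1d1 19.6 ± 2.91 CPM, a change of 0.33 ± 0.13 (edgeR adjusted p = 0.0902). Leaving out 1 library brought cyp1a (mutant DMSO replicate 2, -0.32, edgeR adjusted p = 0.0380) and cyp1c2 (mutant DMSO replicate 3, 0.49, 0.0361, or wild-type DMSO replicate 1, 0.53, 0.0497) under the threshold. In the authors' deposited tables, cyp1c1 is the only member listed in DMSO, at a log2 ratio of -0.70, and cyp1a and cyp1d1 are those listed with TCDD, at 0.66 and 0.39.

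The difference of the TCDD effects, mutant minus wild type, tests whether the log2 change with TCDD differed between the lines. It was called for cyp1a and cyp1c1, whose log2 change was larger in mutants, and not for cyp1c2 or cyp1d1. The 2 called members compare with 1.85% of all genes called with a larger log2 change in mutants, and 10.2% called with a smaller one. The difference was 0.89 ± 0.14 for cyp1a (edgeR adjusted p = 3.72e-04), made up of a higher TCDD level (0.66) and a DMSO change of -0.23 that was not called. For cyp1c1 it was 0.54 ± 0.16 (edgeR adjusted p = 0.0396), made up of a lower DMSO level (-0.70) and a TCDD change of -0.16 that was not called. With TCDD, cyp1c1 averaged 668 CPM in mutants and 747 CPM in wild type. Its larger log2 change thus does not mean more cyp1c1 reads in exposed mutants. For cyp1c2 it was -0.26 ± 0.19 (edgeR adjusted p = 0.419) and for cyp1d1 0.07 ± 0.18 (edgeR adjusted p = 0.863).

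The cyp1c1 difference was near the threshold. It was not called in limma-voom (adjusted p = 0.0824), with the replicate number as a term (edgeR adjusted p = 0.0592), with the library score as a term (0.34 ± 0.26, edgeR adjusted p = 0.815), or without any 1 of 8 libraries (edgeR adjusted p from 0.0505 to 0.0855). The libraries were replicates 1 and 4 of mutant TCDD, 1 and 4 of mutant DMSO, 3 and 4 of wild-type TCDD, and 3 and 4 of wild-type DMSO. The cyp1a difference was called without any 1 of the 14 libraries, at 0.83 to 0.98. With the library score as a term it was 0.64 ± 0.22 (edgeR adjusted p = 0.522), in a fit that called 0 of 20098 genes for this difference, with 1506 under an unadjusted p of 0.05. Since the scores move with the groups, that term can also absorb differences between them.

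**Figure D2:**
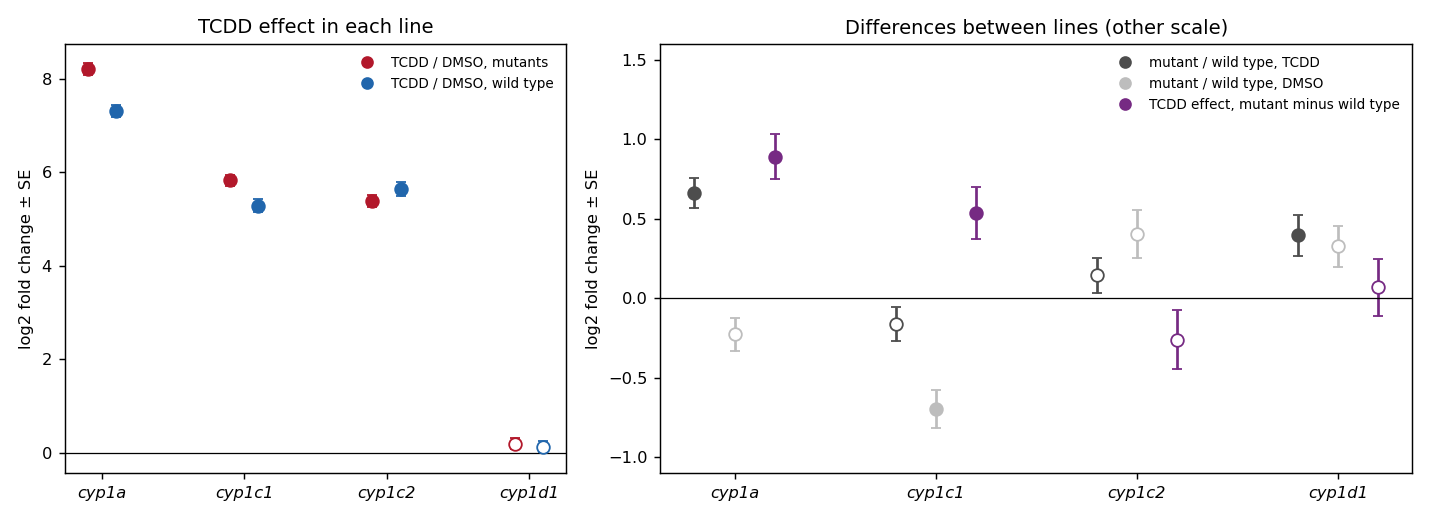
Log2 fold changes of the 4 cyp1 genes with SE as bars, from the edgeR fit to all 14 libraries; the left panel shows TCDD over DMSO in each line and the right panel, on its own scale, mutant over wild type with TCDD and in DMSO, and the mutant TCDD effect minus that of wild type. Filled points passed the adjusted p of 0.05 and open points did not; cyp1a is positive at 0.66 with TCDD and 0.89 for the difference, and cyp1c1 is negative at -0.70 in DMSO.

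Ratios of reads between members within a library do not depend on how libraries are scaled. They show how the shares among these 4 genes changed. With TCDD, cyp1a held 84.6% of the reads of the 4 genes in mutants and 76.6% in wild type, against 28.8% in mutant DMSO and 31.6% in wild-type DMSO. These are shares of reads, and longer transcripts give more of them. The exact permutation tests below are two-sided, over 12 comparisons (3 ratios, 4 contrasts), with p adjusted over the 12. The smallest p possible is 0.0286 for 4 against 4 or 4 against 3 libraries and 0.1 for 3 against 3, so that wild type alone cannot reach 0.05. A p of 0.0286 is thus the floor, and all results at that floor share the same adjusted p. That adjusted p, 0.0490, lies under 0.05 only because several results share the floor. A p at the floor says little more than that the groups did not overlap. Between the lines, CPM did not overlap for 37.1% of all genes with TCDD and 23.6% in DMSO. No such share is given for ratios. Each of the 3 ratios follows from the others, so that the 12 tests are not independent. The ratios rest on the same counts as the fold changes above and are not separate evidence.

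The ratio of cyp1c1 to cyp1a reads was 0.154, 0.121, 0.125 and 0.139 in mutant TCDD libraries, against 0.263, 0.227 and 0.223 in wild-type TCDD libraries. Mutants were lower without overlap, by a log2 difference of -0.83 (exact permutation p = 0.0286, adjusted 0.0490). This restates the changes between the lines with TCDD, -0.16 for cyp1c1 and 0.66 for cyp1a. In DMSO the ratio was 0.796, 0.677, 0.794 and 0.570 in mutants, against 0.877, 1.17 and 0.900 in wild type. It was again lower in mutants (-0.47, exact permutation p = 0.0286, adjusted 0.0490), which restates -0.70 for cyp1c1 and -0.23 for cyp1a. With TCDD this ratio fell by 2.39 on the log2 scale in mutants (exact permutation p = 0.0286, adjusted 0.0490). In wild type the difference was -2.04, without overlap (exact permutation p = 0.1, the smallest possible, adjusted 0.12).

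The ratio of cyp1c2 to cyp1a was lower in mutants with TCDD and higher in mutants in DMSO. With TCDD it was 0.0420, 0.0423, 0.0445 and 0.0407 in mutants, against 0.0547, 0.0657 and 0.0617 in wild type, a log2 difference of -0.52 (exact permutation p = 0.0286, adjusted 0.0490). In DMSO it was 0.313, 0.340, 0.264 and 0.274 in mutants, against 0.216, 0.200 and 0.168 in wild type, a difference of 0.61 (exact permutation p = 0.0286, adjusted 0.0490). The groups did not overlap in either exposure. TCDD against DMSO gave -2.81 in mutants (exact permutation p = 0.0286, adjusted 0.0490) and -1.68 in wild type (exact permutation p = 0.1, the smallest possible, adjusted 0.12).

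Between the neighbours, the ratio of cyp1c2 to cyp1c1 in DMSO was 0.393, 0.503, 0.332 and 0.481 in mutants, against 0.246, 0.171 and 0.187 in wild type. Mutants were higher without overlap, by 1.08 on the log2 scale (exact permutation p = 0.0286, adjusted 0.0490). With TCDD the ratio was 0.273, 0.351, 0.357 and 0.293 in mutants, against 0.208, 0.290 and 0.276 in wild type. These groups overlapped, with a log2 difference of 0.31 (exact permutation p = 0.143, adjusted 0.156). Between exposures this ratio overlapped as well, at a log2 difference of -0.41 for TCDD against DMSO in mutants (exact permutation p = 0.0857, adjusted 0.12) and 0.36 in wild type (exact permutation p = 0.2, adjusted 0.2). Whether the counting could move reads between these related genes was not tested.

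**Figure D3:**
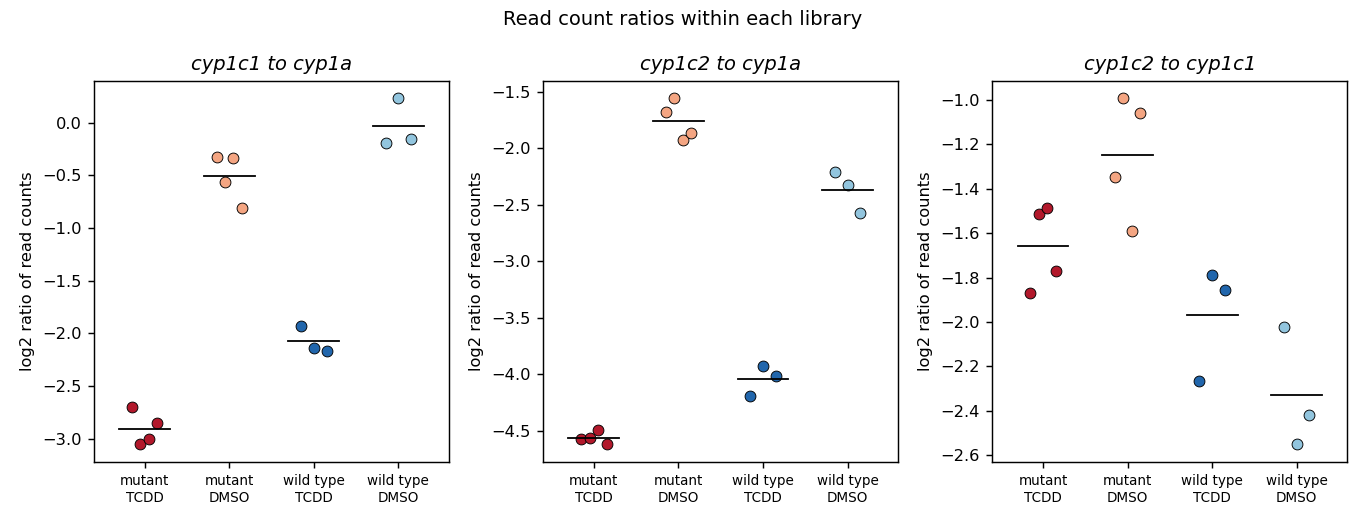
Log2 ratios of read counts of cyp1c1 to cyp1a, cyp1c2 to cyp1a and cyp1c2 to cyp1c1 in each library, with lines at the group means; each panel has its own scale. The ratios to cyp1a are lower in every TCDD library than in any DMSO library, and the ratio of cyp1c2 to cyp1c1 in DMSO is higher in every mutant library than in any wild-type library.

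Likeness to each member was measured as the root mean square difference of log2 CPM over the 14 libraries, after subtraction of each gene's own mean. It was taken among 12999 named genes averaging 1 or more on that scale. These log2 CPM include a prior count of 2, which shrinks changes of genes with few reads. Closest to cyp1c1 was ahrra, the gene of an AHR repressor that is itself an AHR target, at 0.24. DMSO libraries held only 4 to 13 counts of ahrra, so that its distances depend in part on the prior count. Next to cyp1c1 came cyp1c2 at 0.45, cyp1a at 1.18, foxq1a at 1.34 and sult6b1 at 1.47. The order for cyp1c2 was ahrra at 0.39, cyp1c1 at 0.45, foxq1a at 1.18, cyp1a at 1.21 and sult6b1 at 1.39. For cyp1a it was cyp1c1 at 1.18, ahrra at 1.19, cyp1c2 at 1.21, foxq1a at 2.32 and sult6b1 at 2.52. On this scale, which keeps the size of each gene's changes, the forkhead factor gene foxq1a and the sulfotransferase gene sult6b1 stood further from cyp1a than the cyp1c genes did. Closest to cyp1d1 were drg1, padi2 and TRAF4, at 0.118, 0.122 and 0.123. When each profile was scaled to unit SD, 3 of 5 genes stayed on the list of each induced member and 0 of 3 on that of cyp1d1. The genes foxq1a and sult6b1 left the list of each induced member, and ccn2b entered each. At 0.106, ccn2b was then closer to cyp1a than cyp1c1 was, at 0.116.

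The repressor ahrra rose with TCDD by 6.14 ± 0.21 in mutants (edgeR adjusted p = 2.84e-12) and by 5.30 ± 0.23 in wild type (edgeR adjusted p = 1.38e-10). The other repressor gene, ahrrb, was called higher in both lines (edgeR adjusted p = 0.00157 in each). Its DMSO libraries held 2, 0, 4 and 1 counts in mutants and 0, 0 and 1 in wild type, too few to fix a fold. It had enough reads to be tested only through its TCDD libraries, at 7 to 25 counts. The ahrrb call is therefore not independent of the filter on low counts. Neither repressor was called between the lines.

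Of 9 other AHR targets (conjugation enzymes, foxq1 and nfe2l2b factors, tiparp and nqo1), 9 rose with TCDD in mutants and 7 in wild type, against 17.5% and 8.84% of all genes. They were listed as AHR targets with earlier results of these data known. Their changes as a list, with TCDD and between lines, are therefore described here and not tested. Their median log2 change was 1.63 in mutants and 1.19 in wild type, against 0.00452 and 0.0295 over all genes. Between lines under TCDD, 7 of 9 were higher in mutants and 2 were not called, against 10.7% of all genes higher, with a median of 0.45, against 0.00175 over all genes. The called ones of smallest adjusted p were the glucuronosyltransferase gene ugt1b1 (0.80 ± 0.11), foxq1a (0.83 ± 0.13), the ADP-ribosyltransferase gene tiparp (0.43 ± 0.10) and sult6b1 (0.63 ± 0.16), with 0.00693 as the highest edgeR adjusted p of these. In DMSO, 2 of 9 were already higher in mutants, against 8.21% of all genes. These were foxq1a (0.70 ± 0.16, edgeR adjusted p = 0.00752) and nfe2l2b (0.65 ± 0.15, edgeR adjusted p = 0.00626). The difference of the TCDD effects was called for 3 of 9, ugt1b1 (0.71 ± 0.16), tiparp (0.51 ± 0.15) and gstp1 (0.53 ± 0.16), with edgeR adjusted p from 0.00658 to 0.0381. Over all genes, 1.85% were called with a larger log2 change in mutants and 10.2% with a smaller one. The difference was not called for foxq1a (0.13 ± 0.21) or nfe2l2b (-0.21 ± 0.20).

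The receptor gene ahr2 went the other way from cyp1a between the lines with TCDD. It averaged 405 ± 18.5 CPM in mutants with TCDD (SD, n = 4) and 482 ± 26.9 CPM in wild type with TCDD (SD, n = 3), a change of -0.25 ± 0.08 (edgeR adjusted p = 0.0298). The difference of its TCDD effects was -0.38 ± 0.12 (edgeR adjusted p = 0.0428). Of 9 receptor, partner and chaperone genes, 2 were higher (ptges3a, ptges3b) and 2 lower (ahr1b, ahr2) in mutants with TCDD, and 5 were not called, against 10.7% of all genes higher and 16.9% lower. The difference of the TCDD effects was positive and called for 1 of the 9, hsp90aa1.1 (0.72 ± 0.20, edgeR adjusted p = 0.0236). It was negative and called for 3, namely ahr2, ahr1b (-0.65 ± 0.14, edgeR adjusted p = 0.00411) and arnt2 (-0.47 ± 0.13, edgeR adjusted p = 0.0198). The other 5 were not called, against 1.85% of all genes called positive and 10.2% negative.

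**Figure D4:**
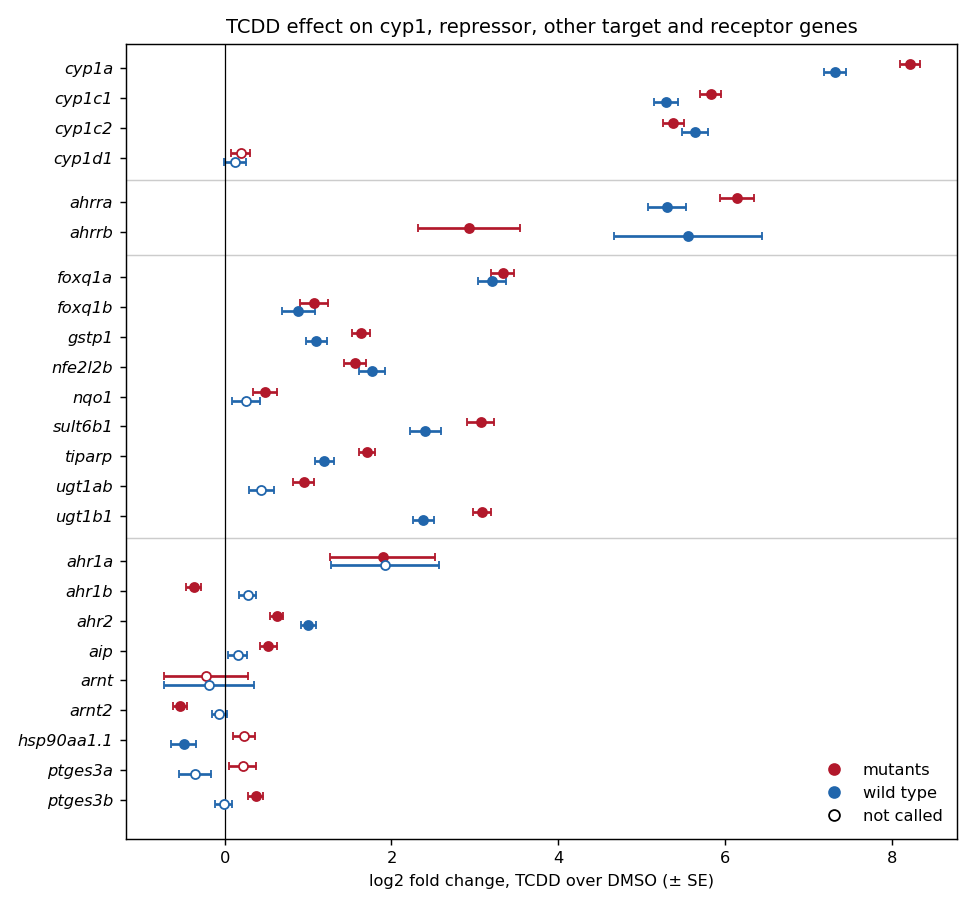
Log2 change with TCDD over DMSO, with SE, in mutants (upper point of each pair) and wild type (lower point) for the 4 cyp1 genes, 2 repressors, 9 other AHR targets and 9 receptor, partner and chaperone genes, separated by lines. The cyp1a points at 8.21 and 7.32 lie furthest to the right, cyp1d1 lies near 0, and ahr2 is the receptor gene called in both lines, at 0.62 and 1.00; the ahrrb points rest on DMSO libraries with at most 4 counts. Open points were not called.

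P450 enzymes need electrons and heme. Of 17 listed genes for electron donors, heme synthesis and heme breakdown, 10 were matched by name and tested. No gene for cytochrome P450 reductase was among the 10, so that they cover electron supply only in part. With TCDD in mutants, 5 rose, 1 fell and 4 were not called, against 36.1% of all genes called. In wild type 2 rose, 3 fell and 5 were not called, against 14.6% of all genes called. The genes called higher in both lines were cyb5a, for the electron carrier cytochrome b5 (1.92 ± 0.12 in mutants, 1.53 ± 0.13 in wild type), and the heme oxygenase gene hmox1a (1.63 ± 0.19 and 1.50 ± 0.21), with edgeR adjusted p at or under 5.77e-04. The first enzyme gene of heme synthesis outside red cells, alas1, rose in mutants (0.71 ± 0.12, edgeR adjusted p = 3.10e-04) and stood at 0.28 ± 0.14 in wild type (edgeR adjusted p = 0.197). The difference of the TCDD effects was called for none of the 10 in edgeR, and for 1 in DESeq2. Between lines with TCDD, 4 of the 10 were higher in mutants, 2 lower and 4 not called, against 10.7% of all genes higher and 16.9% lower. The smallest adjusted p was that of cyb5a. With TCDD, cyb5a stood at 477 ± 37.8 CPM in mutants (SD, n = 4) and 290 ± 47.8 CPM in wild type (SD, n = 3), a change of 0.72 ± 0.12 (edgeR adjusted p = 3.64e-04).

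Other P450 families changed less with TCDD. Of 67 other cyp genes in the table, 56 were tested. With TCDD in mutants, 9 rose, 7 fell and 40 were not called, against 36.1% of all genes called, with a median log2 change of 0.07 and values from -1.47 (cyp2k6) to 1.55 (cyp24a1, the vitamin D hydroxylase gene). In wild type 2 rose, 4 fell and 50 were not called, against 14.6% of all genes called, with a median of -0.06 and values from -1.34 (cyp3c3) to 1.30 (cyp2aa7). The smallest log2 rise among the called cyp1 members was 5.29, for cyp1c1 in wild type. The retinoic acid hydroxylase gene cyp26b1 fell in mutants (-0.53 ± 0.12) and in wild type (-0.65 ± 0.14), with edgeR adjusted p of 0.00236 and 0.00631, and cyp51 of sterol synthesis fell in both as well. Between lines under TCDD, 15 were higher, 4 lower and 37 not called, against 10.7% of all genes higher and 16.9% lower. Here the values ran from -3.40 (cyp2p9) to 1.70 (cyp3c3), both called (edgeR adjusted p = 0.00150 and 0.00104). Both were larger in size than the 0.66 of cyp1a. At 0.172 ± 0.207 CPM in mutant TCDD libraries (SD, n = 4), cyp2p9 had too few reads to fix its fold. In DMSO cyp2p9 was lower in mutants as well (-2.89 ± 0.63, edgeR adjusted p = 0.00474). The difference of its TCDD effects was not called (-0.50 ± 0.96, edgeR adjusted p = 0.800).

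Cell type markers were read beside these results. With TCDD, the summed CPM of 7 endothelial markers lay at 227 to 242 in mutants and 267 to 296 in wild type. The sum of 9 liver markers lay at 2285 to 2581 and 2540 to 2596, that of 7 heart muscle markers at 99.7 to 119 and 143 to 148, and that of 6 skin markers at 2889 to 3421 and 3099 to 6369. The sum of 2 kidney tubule markers lay at 219 to 242 and 212 to 234, and that of 4 red blood cell markers at 622 to 775 and 949 to 1383. The endothelial, heart muscle and red blood cell sums were lower in every mutant TCDD library than in any wild-type TCDD library. The liver, skin and kidney tubule sums overlapped. Levels of single genes separated the lines under TCDD, in either direction, for 37.1% of all genes. A sum rests most on its most abundant genes, and single markers went both ways. Of 6 skin markers 2 were called higher and 1 lower in mutants with TCDD, and of 9 liver markers 1 higher and 2 lower. None of the other markers was called higher. Called lower were 1 of 7 endothelial, 2 of 7 heart muscle and 2 of 4 red blood cell markers. Over all genes, 10.7% were called higher and 16.9% lower. In DMSO, where cyp1c1 was lower in mutants, the mutant sums were 264 to 269 for endothelium, 90.5 to 105 for heart muscle, 1628 to 2003 for liver and 2237 to 2433 for skin. The wild-type DMSO sums were 241 to 268 for endothelium, 111 to 132 for heart muscle, 1891 to 3018 for liver and 3710 to 8457 for skin. Kidney tubule sums were 195 to 213 in mutant DMSO and 215 to 237 in wild-type DMSO, and red blood cell sums 425 to 563 and 953 to 1309. No single marker was called higher in mutants in DMSO. Called lower there were 1 of 7 endothelial, 3 of 9 liver, 3 of 7 heart muscle, 3 of 6 skin and 3 of 4 red blood cell markers. Neither kidney tubule marker was called. Over all genes in DMSO, 8.21% were called higher in mutants and 8.60% lower. The part of these tissues in the cyp1 differences was not tested.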

How the data were processed

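Per the labels' protocols, stranded libraries of poly(A) RNA (integrity number over 8) were read from a single end. The deposited values are raw read counts per gene; per the submitters' processing notes, cutadapt 1.8.1, HISAT2 2.2.0, SAMtools 1.10, HTSeq 0.12.4, edgeR and assembly GRCz11 were used, with annotation release and strand setting not given in the sources used here. The authors' deposited tables hold log2 ratios and log2 mean CPM, the p-value and FDR, and an F score by the authors, for genes with an FDR under 0.05; only names, log2 ratios and listings were used.

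The fit to the counts used edgeR 4.0.16 under R 4.3.3 (TMM factors 0.97 to 1.02, filterByExpr, 1 mean per group over 14 libraries, Benjamini-Hochberg adjustment). SE is the log2 change over the square root of F. Of 32520 genes, 20098 were tested. The biological coefficient of variation was 0.151. Names came from the deposited tables for 10902 IDs and from a table of gene names for 18822. Each library was a pool from its own dish, so that p-values measure the spread between pools.

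Named were the members, wfikkn1, up to 4 called genes per list and comparison by smallest adjusted p, and the genes closest in profile; other genes named for their count or level were chosen after their values were seen. The members and lists were chosen with earlier results of these data known. Alternatives were RLE scaling, other filters, DESeq2 1.42.0, limma-voom (limma 3.58.1), only the groups compared, replicate number or library score as a term, and leaving out each library. The fit was tested on simulated data. Same-numbered libraries were checked for shared deviations and were not treated as pairs. Sequences and transcript lengths were not analysed here.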

Additional observations from a re-analysis of the deposited data

Results flagged for a closer look

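Both flags are differences in response between the lines. The TCDD effect on cyp1a was larger in mutants than in wild type by 0.89 ± 0.14 on the log2 scale (edgeR adjusted p = 3.72e-04; 0.83 to 0.98 with single libraries left out). On the same log2 scale, the TCDD effect on cyp1c1 was larger in mutants by 0.54 ± 0.16 (edgeR adjusted p = 0.0396). Its TCDD level was not higher in mutants, and this call ended without any 1 of 8 libraries. No library stood apart from the others of its group in the 8 sets of 4 mutant libraries examined, where chance flags about 1 in 20.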

How the results depend on the processing

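The rise of cyp1a, cyp1c1 and cyp1c2 with TCDD in both lines, the higher mutant cyp1a with TCDD and the lower mutant cyp1c1 in DMSO kept direction and call under all 8 other fits and all single libraries left out. With the library score as a term, the genes called numbered 2223 for TCDD in mutants, 1147 for TCDD in wild type, 1358 and 1796 between lines with TCDD and in DMSO, and 0 for the difference in response (1506 at an unadjusted p under 0.05). That term gave differences of 0.64 for cyp1a, 0.34 for cyp1c1 and -0.0563 for cyp1d1, and 0.32 for cyp1d1 between lines with TCDD. Fitting only the groups compared called 1170 genes for TCDD in wild type and 2172 between lines in DMSO. Deviations of same-numbered libraries correlated at -0.357 to 0.206. Differently numbered libraries were not set beside them, so that this check does not settle whether replicate numbers mark pairs. The replicate block gave 0.37 for cyp1d1 between lines with TCDD and 0.54 for the cyp1c1 difference, and limma-voom gave 0.54 for that difference, none of them called; the block changed no other call of a member. The cause of these changes was not tested.

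With single libraries left out, 1856 to 3017 genes were called for TCDD in wild type (lowest without wild-type TCDD replicate 3) and 2064 to 3504 between lines in DMSO (lowest without wild-type DMSO replicate 4). The cyp1d1 values ran from -0.00470 to 0.24 for TCDD in wild type, negative without wild-type DMSO replicate 1. They ran from 0.28 to 0.47 between lines with TCDD, and from -0.0439 (without wild-type TCDD replicate 4) to 0.17 for the difference, which was also negative without wild-type DMSO replicate 4 (-0.0194). Between lines in DMSO, cyp1a ran from -0.32 to -0.17 and cyp1c2 from 0.22 to 0.53. The cyp1c1 difference ran from 0.45 to 0.63. Depth limits cyp1c2 most, at 74 to 184 counts per DMSO library.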
